A study of Rattus norvegicus with 9 samples.

Results

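C1qa, C1qb, C1qc, Cd163, Mrc1, Vsig4, Marco and Cd5l are genes that tissue macrophages use to bind and clear material. They were taken by their symbols from the gene list of the single-cell count matrices, where all 8 of the 8 symbols stood among 41801 genes and 7 of them had a unique molecular identifier (UMI, 1 counted molecule) in at least 1 barcode. Their counts were followed across the myeloid cell classes and across 8 libraries, and a cluster of shallow droplets that carried the same genes was kept apart throughout.

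The libraries came from tissue taken at a circular osteotomy of the proximal tibia, a 3 mm cut into the bone, in Sprague-Dawley rats 6 to 8 weeks old. Every rat also carried a full-thickness skin wound on the foot of the same side, so that no library came from an uninjured animal. The TO libraries had the osteotomy alone, and the TOE libraries had it followed by radial extracorporeal shock waves (rESWT), pressure pulses passed through the skin into the cut bone. Sessions were given 2 and 4 days after surgery, and the TOE libraries of day 2 were taken before the session of day 4. The study made the libraries to ask which cells of the site give rise to the small extracellular vesicles that it linked to wound healing after shock waves.

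Libraries are named by the day after surgery and the hours after the time of the session. The TO libraries were first TO 2d 0h, taken before any session, then TO 2d 4h, next TO 4d 4h and last TO 4d 24h. The TOE libraries began with TOE 2d 4h, followed by TOE 2d 24h, then by TOE 4d 4h and finally by TOE 4d 24h, and values listed for either arm follow this order. TO 2d 24h was not analysed here, which left 3 matched pairs: the day 2 pair (2d 4h), the early day 4 pair (4d 4h) and the late day 4 pair (4d 24h). Each condition was 1 library and the design gives as many rats as samples, so there was no replicate, no difference between conditions was tested, and every interval below is a 95% interval that covers counting error only. The libraries held 12451 to 17187 barcodes of at least 500 UMIs, with median UMI counts of 4522 to 5668 and totals of 95954800 to 144146202. Between 40 and 110 barcodes were shared by any 2 libraries, at most 0.783% of the barcodes of a library. Libraries stood apart within lineages, the macrophage-like cells included, as their sub-clusters show further on. One B cell-like cluster held 3394 to 4176 cells from each of TO 2d 0h, TO 4d 24h and TOE 2d 24h and 31 to 67 from each other library, another held 2484 to 3328 cells from each of the 4 libraries taken at 4 h and 45 to 214 from each other one, and TOE 4d 24h had 3644 cells in a further one and 0 in an erythroid-like cluster with 351 to 585 cells from each other library. In that further cluster the day 2 pair also differed, with 294 cells from the TO library and 2550 from the TOE library, and TO 4d 24h had 433. An unnamed cluster with haemoglobin genes among its leading genes held 1988 cells of the TO library and 69 of the TOE library in the day 2 pair, and another unnamed cluster 124 and 1763. The part of these differences in the results was not tested.

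C1q is the recognition molecule of the classical complement pathway and is built from the chains encoded by C1qa, C1qb and C1qc, and macrophages are a main source of it. Cd163 is the receptor for haemoglobin bound to haptoglobin, Mrc1 (the mannose receptor CD206) takes up mannosylated glycoproteins and collagen fragments, Vsig4 binds C3b-coated particles, Marco is a class A scavenger receptor and Cd5l is a secreted scavenger protein of tissue macrophages. In bone marrow such macrophages clear spent erythrocytes, nuclei shed by erythroblasts and apoptotic leukocytes, and Mrc1 is also made by sinusoidal endothelium and some dendritic cells.

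In the RefSeq annotation of assembly GRCr8 the genes C1qb, C1qc and C1qa followed each other on chromosome 5 with no other gene between them. Promoter windows of 250 bases before the start were found in the RefSeq tables for 7 of the 8 genes, and C1qc had no entry. They were searched on both strands for TGCTGA, the core that MAF factors bind, for GAGGAA, a core that ETS factors bind, and for TGANTCA, the AP-1 site, motifs of factor families known to act in macrophages. TGCTGA was found in 15.2% of 27457 RefSeq promoters of that length, GAGGAA in 23.2% and TGANTCA in 6.36%. The windows of C1qa, C1qb and Cd5l were those that held TGCTGA, and they are printed here, 5′ to 3′ on the strand of the gene and in lower case with each match to TGCTGA or GAGGAA, on either strand, in capitals. They belong to GRCr8, chr5:154419934-154420183 on the minus strand for C1qa, chr5:154407828-154408077 on the minus strand for C1qb and chr2:175088665-175088914 on the plus strand for Cd5l, a different assembly from the rat build named in the submitters' processing notes.
C1qa: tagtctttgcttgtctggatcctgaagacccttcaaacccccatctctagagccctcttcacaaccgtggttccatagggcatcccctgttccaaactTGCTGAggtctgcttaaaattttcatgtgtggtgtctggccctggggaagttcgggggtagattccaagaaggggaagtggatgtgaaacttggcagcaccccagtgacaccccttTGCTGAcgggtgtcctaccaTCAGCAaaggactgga
C1qb: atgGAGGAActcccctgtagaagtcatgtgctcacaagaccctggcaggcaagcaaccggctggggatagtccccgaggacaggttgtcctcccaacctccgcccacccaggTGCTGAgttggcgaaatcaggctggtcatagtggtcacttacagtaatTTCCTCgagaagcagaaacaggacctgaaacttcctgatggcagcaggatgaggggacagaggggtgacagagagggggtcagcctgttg
Cd5l: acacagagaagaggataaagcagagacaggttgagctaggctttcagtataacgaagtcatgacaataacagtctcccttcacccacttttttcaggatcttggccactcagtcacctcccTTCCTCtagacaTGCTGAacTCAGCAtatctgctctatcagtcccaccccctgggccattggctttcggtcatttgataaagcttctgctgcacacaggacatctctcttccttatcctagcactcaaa
C1qa held 3 matches to TGCTGA, 152, 36 and 16 bases before the start, C1qb held 1, at 138 bases, and Cd5l held 2, at 117 and 109 bases. GAGGAA was found 2 times in the window of C1qb, at 247 and 90 bases, 1 time in that of Cd5l, at 129 bases, 2 times in that of Mrc1 and 1 time in that of Marco. The windows of Cd163 and Vsig4 held none of the 3 motifs, and TGANTCA was in none of the 7. These are matches of letters and say nothing about binding.

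After filters on genes and mitochondrial counts and removal of predicted doublets, 110488 cells fell into 31 clusters, formed from genes among which the 8 members were left out. Classes were called from marker lists that also held none of the members. The macrophage-like class was 1 cluster of 2267 cells, 2.05% of all cells, in which 11 of 12 macrophage markers were raised and which was led by Apoe, Ms4a7 and Spp1. Of 8 osteoclast markers, 5 were raised in it too. All 12 macrophage markers had UMIs in it, as had all 10 monocyte, 8 osteoclast, 11 neutrophil, 9 B cell and 10 erythroid markers. Its cells numbered 351, 230, 298 and 138 in the TO libraries, and 130, 614, 480 and 26 in the TOE libraries, so that TOE 4d 24h rested on the fewest cells. The shallow droplets were a cluster of 484 barcodes with a median of 1367 UMIs against 13619 in the macrophage-like class, led by C1qc, Dnase1l3 and C1qa, with 10 of 12 macrophage markers raised. They are called C1q droplets here and were given no cell type.

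The C1q genes were high in the macrophage-like cells and the C1q droplets and far lower in every other class. Levels are UMIs of a gene per 1000000 UMIs of the same cells (CPM), and they were compared between classes for 1 gene at a time. C1qa stood at 673 CPM in macrophage-like cells, 8887 in C1q droplets and 4.51 in B cell-like cells, which served as a class that should not make it. C1qb stood at 476, 6040 and 3.14 CPM and C1qc at 384, 5412 and 2.27 CPM in the same order. Summed, the 3 chains came to 1533 CPM (1520 to 1545) in macrophage-like cells. The other shallow droplets, which had no class, followed at 71.9 CPM (11.2 to 163 between libraries), where single barcodes held 77 of the 226 C1qa UMIs, 68 of the 154 C1qb UMIs and 42 of the 119 C1qc UMIs, and mast cell/basophil-like cells at 25.6 CPM, a value that rested on TO 2d 0h with 109 CPM. Mesenchymal-like cells stood at 13.4 CPM, erythroid-like cells at 13.3, T/NK cell-like cells at 10.5, neutrophil-like cells at 9.99, B cell-like cells at 9.92, granulocyte-monocyte progenitor-like cells at 8.51, monocyte-like cells at 8.10, endothelial-like cells at 7.70 and dendritic cell-like cells at 7.17. Between libraries the B cell-like value ran from 2.27 to 23.2 CPM and the monocyte-like value from 1.35 to 16.3, so that the order among these low classes lay within the spread between libraries.

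The receptors and Cd5l followed the same order between the macrophage-like cells, the C1q droplets and the B cell-like background but with other sizes. Cd163 was 49.95 CPM in macrophage-like cells, 719 in C1q droplets and 0.324 in B cell-like cells. Mrc1 was 213, 627 and 1.27 CPM. Cd5l was 26.3, 519.6 and 0.174 CPM. Vsig4, whose protein is the complement receptor of the immunoglobulin superfamily, stayed low, at 2.96, 11.2 and 0.061 CPM. Marco had 0 UMIs in the 2267 macrophage-like cells, which allows a share of cells with a UMI of up to 0.132%, and so was not detectable at this depth.

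**Figure D1:**
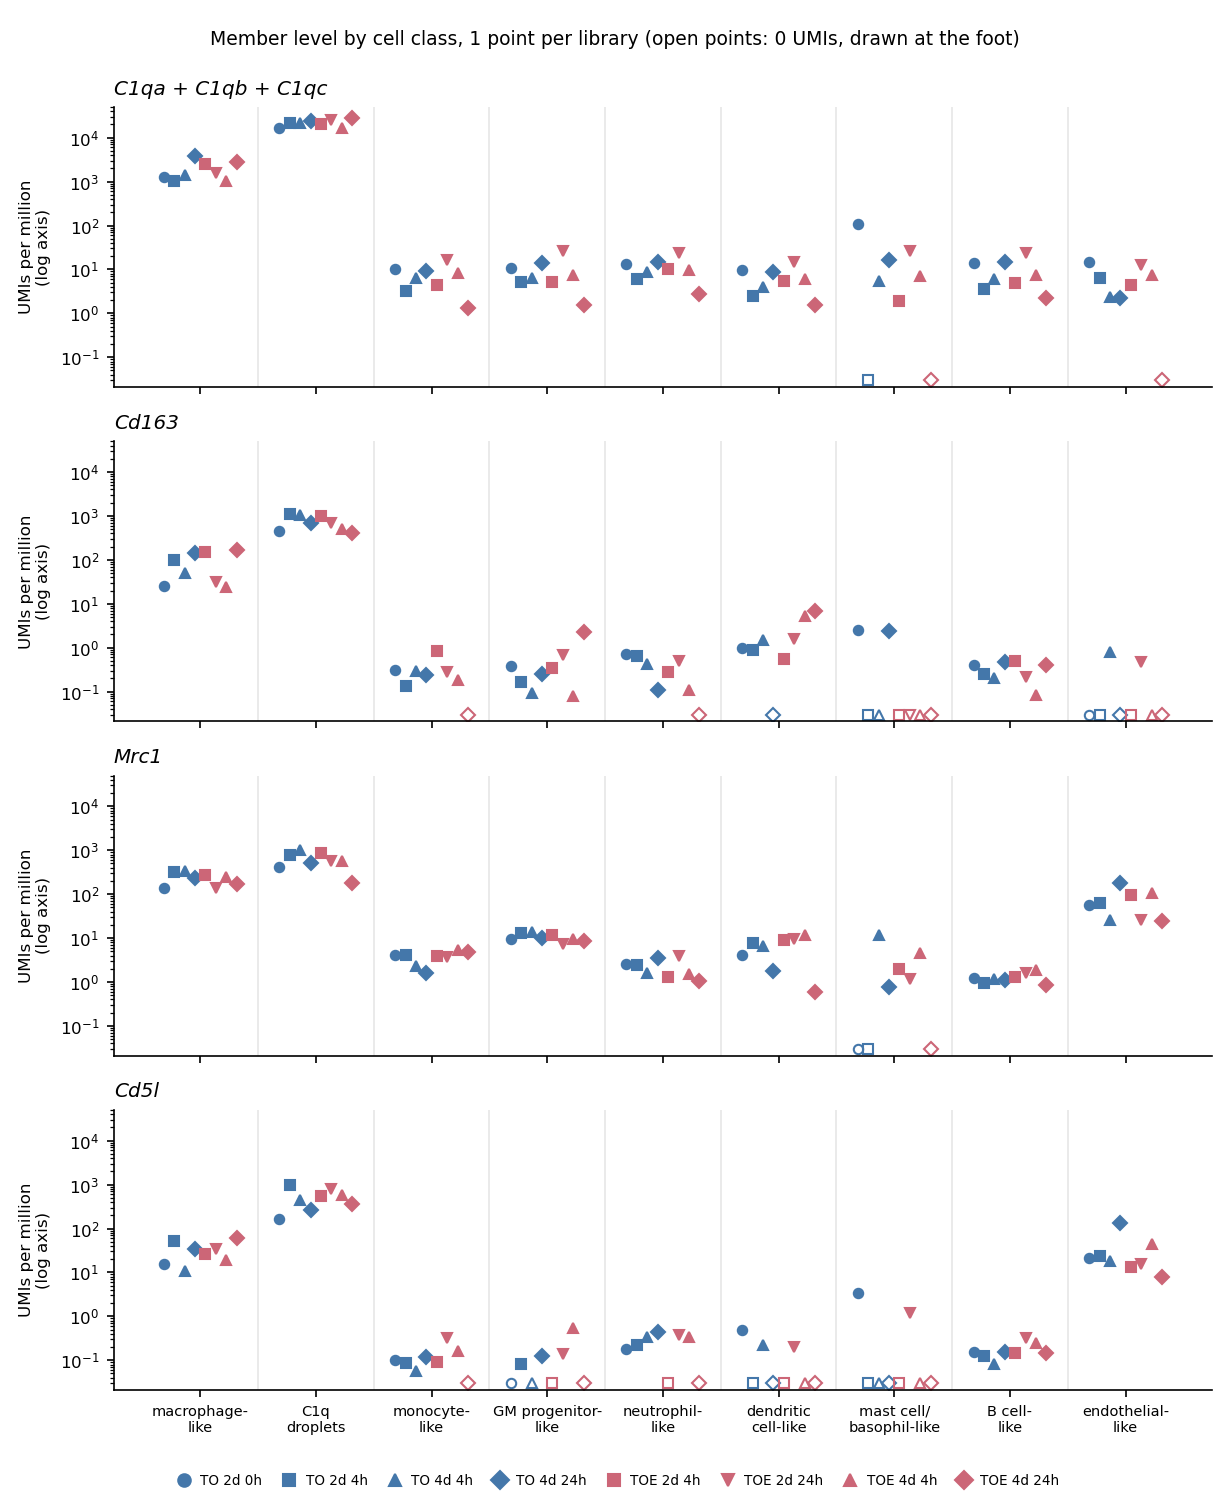
Level of the C1q sum, Cd163, Mrc1 and Cd5l in CPM (log axis) by cell class, with 1 point per library, TO in blue and TOE in red, and open points at the foot for 0 UMIs. The C1q sum lay between 1049 and 3765 in the macrophage-like cells and between 16472 and 28832 in the C1q droplets, and Mrc1 and Cd5l also stood high in the endothelial-like cells.

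The ratio between members within a class differed by member. For each C1qa UMI there were 0.707 C1qb UMIs in macrophage-like cells, 0.680 in C1q droplets and 0.695 in B cell-like cells, and 0.570, 0.609 and 0.502 C1qc UMIs. Cd163 came to 0.0742, 0.0809 and 0.0717 per C1qa UMI and Cd5l to 0.0391, 0.0585 and 0.0385. The B cell-like ratios were thus those of the macrophage-like cells or close to them, at a far lower level of C1qa. Mrc1 was also close in these classes, with 0.317 UMIs per C1qa UMI in macrophage-like cells and 0.282 in B cell-like cells, but its ratio was 0.0705 in C1q droplets, 1.03 in monocyte-like cells, 2.02 in dendritic cell-like cells, 2.93 in progenitor-like cells and 18.5 in endothelial-like cells. Cd5l reached 9.05 per C1qa UMI in endothelial-like cells and Cd163 0.589 in dendritic cell-like cells.

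With the libraries summed, most UMIs of the members found lay in the macrophage-like cells and the C1q droplets, although these were a small part of the barcodes. Of 38977 C1qa UMIs, 64.8% lay in macrophage-like cells and 24.5% in C1q droplets. The shares were 65.7% and 23.9% for 27152 C1qb UMIs, and 64.5% and 26.1% for 22299 C1qc UMIs. Cd163 had 61.9% and 25.5% of 3027 UMIs there, and Cd5l 51.7% and 29.3% of 1908. The droplets took far less of Mrc1, with 67.4% of 11862 UMIs in macrophage-like cells and 5.68% in droplets. Vsig4 had 47.8% and 5.17% of 232 UMIs. By library, the macrophage-like share of the summed C1q UMIs ran from 51.9% to 75.5%, while the droplet share ran from 13.5% to 38.8%.

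**Figure D2:**
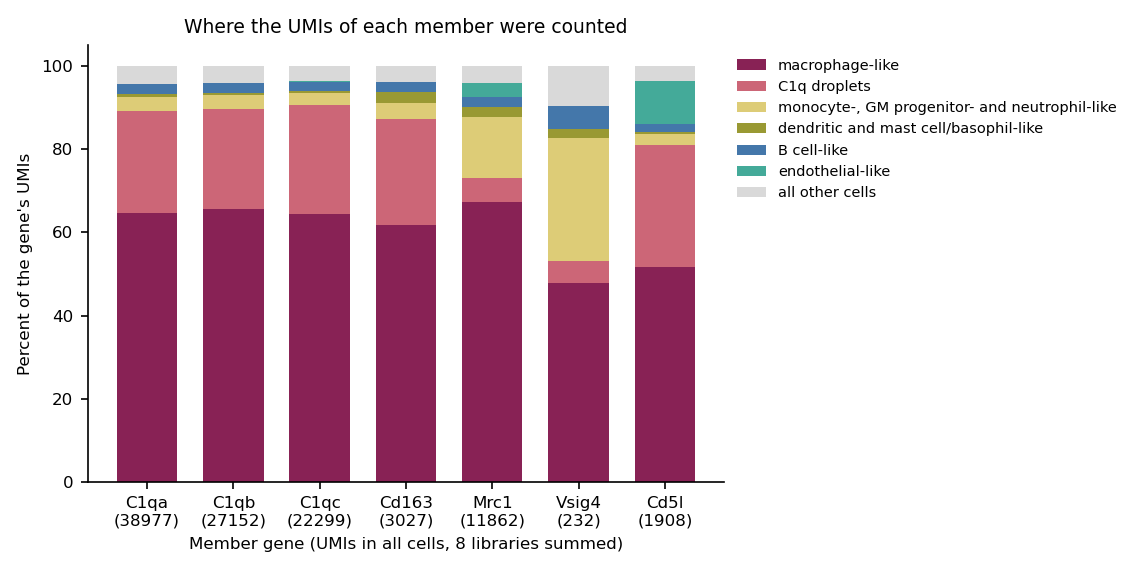
Stacked bars of the share of each member's UMIs, in percent, that lay in each cell class, with the 8 libraries summed and the UMI total under each gene. The droplets held 24.5% of the UMIs of C1qa and 5.68% of those of Mrc1.

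Counted per cell, the members were found in part of the macrophage-like cells only. The class was mixed, with sub-clusters, described further on, that were low in macrophage markers and high in osteoclast or monocyte markers. A C1qa UMI was found in 43.6% of macrophage-like cells (41.6 to 45.7), against 1.84% of B cell-like cells, whose median depth was 3908 UMIs against 13619. C1qb was found in 40.1% against 1.32%, C1qc in 38.6% against 0.937%, Cd163 in 12.4% (11.1 to 13.8) against 0.130%, Cd5l in 6.40% against 0.0730%, and Vsig4 in 1.37% against 0.0264%. Mrc1 was the member found in most macrophage-like cells, 57.9% (55.9 to 59.96) against 0.489% of B cell-like cells. In the C1q droplets the shares were 98.8% for C1qa, 56.6% for Cd163, 52.5% for Mrc1 and 35.1% for Cd5l, at the lower median depth of 1367 UMIs.

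With every cell thinned to 1000 UMIs, the droplets stood further apart. C1qa was then found in 25.1% of 2190 macrophage-like cells (77 shallower cells left out), 96.8% of 310 droplets (174 left out) and 0.432% of B cell-like cells (1617 left out). Cd163 was found in 5.25%, 49.0% and 0.0399%, Mrc1 in 18.5%, 48.4% and 0.0881%, and Cd5l in 2.19%, 33.2% and 0.00839%. All members with UMIs enough to compare were therefore more often found in the droplets at equal depth, Mrc1 included.

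The C1q chains were found together. At 1000 UMIs per cell, 32.1% of macrophage-like cells had a UMI of at least 1 chain and 13.4% had all 3, against 98.1% and 91.3% of the droplets and 0.963% and 0.00210% of B cell-like cells. Cd163 was found in 12.8% of the 406 macrophage-like cells with Mrc1 and in 3.53% of the 1784 without it. In the C1q droplets these shares were 59.3% and 39.4%.

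The members were concentrated in a minority of the macrophage-like cells. Ranked by the gene itself, the top 227 cells, 10% of the class, held 71.9% of its C1q UMIs, 97.1% of its Cd163 UMIs and 50.9% of its Mrc1 UMIs, and all Cd5l UMIs lay in 145 cells. In the droplets the top 49 of 484 held 30.6% of the C1q UMIs.

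When the macrophage-like cells were clustered again, without the members, 11 sub-clusters formed and 1 of them, sub-cluster 3, was the main holder of C1q, Cd163 and Cd5l. It had 223 cells with a median of 8799 UMIs and was led by Hpgds, Vcam1, Plxna4, Dnase1l3 and Gpd1. It held 42.7% of the C1q UMIs of the class, 75.7% of those of Cd163, 79.0% of those of Cd5l and 19.3% of those of Mrc1. Its levels were 4710 CPM for C1qa, 3296 for C1qb, 2897 for C1qc, 630.3 for Cd163, 685 for Mrc1, 346 for Cd5l and 14.2 for Vsig4. Some other macrophage genes were higher there than in the class as a whole, among them the ferroportin gene Slc40a1 at 522 CPM, Spic, a transcription factor of red-pulp and marrow macrophages, at 491, and Axl and Mertk, receptors for apoptotic cells, at 688 and 273 CPM, of which Slc40a1, Axl and Mertk were also markers of the class. Others were not particular to it, such as the haem oxygenase gene Hmox1, at 2124 CPM there, 2129 in sub-cluster 4 and 2041 in sub-cluster 5, the ferritin gene Fth1, at 15314 CPM against 15484 in the class, and the scavenger receptor gene Msr1, at 195 against 235. These genes were chosen after their values were seen.

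Sub-cluster 6 carried C1q and Mrc1 without Cd5l. Its 234 cells, whose leading genes included Ciita, Selenop, Fcrl2 and Stab1, had 3162 CPM of summed C1q, 635 of Mrc1, 49.4 of Cd163 and 2.07 of Cd5l. Mrc1 was thus close to its 685 CPM in sub-cluster 3, while Cd163 was lower by more than 10 times. They held 15.9% of the C1q UMIs of the class and 23.0% of those of Mrc1.

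Further sub-clusters had a lower C1q level. Sub-cluster 1, 431 cells led by Ccl4, Ereg, Apoc1, Nrg1 and Tnf, stood at 1214 CPM of C1q, 198 of Mrc1 and 5.34 of Cd163, and 276 of its cells came from TOE 2d 24h, 129 from TO 2d 0h, and at most 1 from each library taken at 4 h. Sub-cluster 5, 381 cells led by Ank3, F13a1, Spp1 and Arg1, stood at 501 CPM of C1q and 249.7 of Mrc1. The cycling sub-cluster 9 (Cdca3, Plk1, Ccnb1) had 533 and 62.5 CPM. Sub-cluster 10, led by the osteoclast genes Mmp9 and Ctsk, had 164 CPM of C1q and 17.0 of Mrc1. Sub-cluster 11, 142 cells led by Mal, Grap2 and Htr7, had 87.1 CPM of each. The lowest C1q was in sub-cluster 4, 63 cells led by Gprc5d, Gjb2 and Akr1b8, 37 of them from TO 2d 0h. It had 47.1 CPM of C1q, 21.1 of Mrc1 and 0 Cd163 UMIs. Sub-clusters 10 and 11 had the least of the macrophage markers, 2129 and 1454 CPM. Osteoclast markers stood at 9279 CPM in sub-cluster 10, and monocyte markers at 14275 CPM in sub-cluster 11. That monocyte level was not particular to sub-cluster 11, with 19070 CPM in sub-cluster 5, 15023 in sub-cluster 1 and 13625 in sub-cluster 6.

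Several sub-clusters carried genes of other lineages beside C1q. Sub-cluster 2, with haemoglobin genes and a median of 1287 UMIs, stood at 2061 CPM of C1q, sub-cluster 7, with the B cell genes Pax5 and Klhl14, at 1721, and sub-cluster 8, with the neutrophil genes Camp and S100a9, at 859. Of the 103 cells of sub-cluster 8, 86 came from TOE 4d 4h and 8 from TO 4d 4h. The part of mixed barcodes in these values was not tested.

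**Figure D3:**
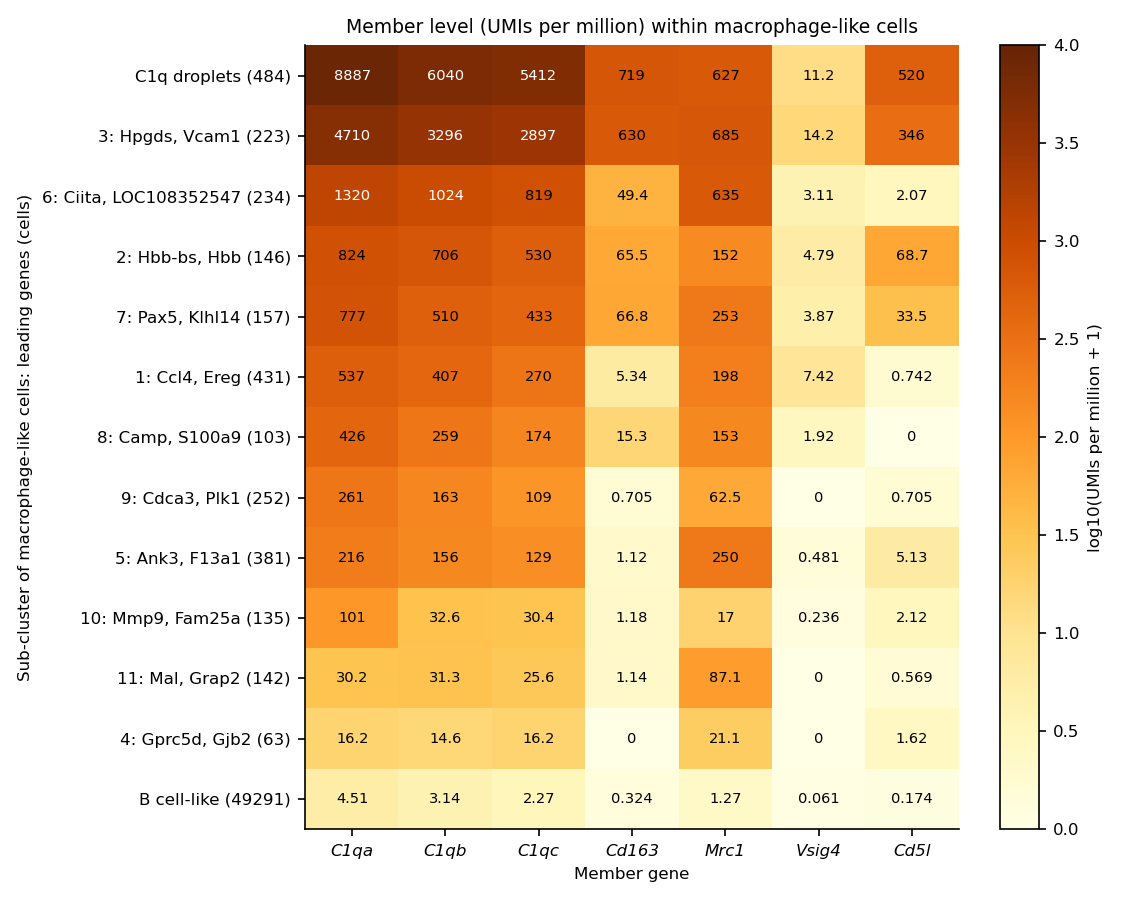
Grid of the level in CPM of 7 members (columns) in the C1q droplets, the 11 sub-clusters of the macrophage-like cells and the B cell-like cells (rows, with cell numbers), shaded by log10 of CPM plus 1. Sub-cluster 3 was the highest sub-cluster for Cd163 (630.3) and Cd5l (346), while Mrc1 was nearly as high in sub-cluster 6 (635) as in sub-cluster 3 (685).

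At 1000 UMIs per cell, 96.8% of the cells of sub-cluster 3 had at least 1 C1q chain and 61.1% had all 3, and 40.7% had Cd163, 43.0% Mrc1 and 18.6% Cd5l. In sub-cluster 6 these shares were 55.7%, 23.5%, 3.91%, 38.3% and 0%. Within sub-cluster 3, Cd163 was found in 41.1% of the 95 cells with Mrc1 and 40.5% of the 126 without it. The shares were 7.95% of 88 and 1.41% of 142 cells in sub-cluster 6, and 12.5% of 24 and 5.26% of 133 in sub-cluster 7.

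Sub-cluster 3 made up a different part of the macrophage-like cells in each library. It had 41, 30, 15 and 47 cells in the TO libraries, which were 11.7%, 13.04%, 5.03% and 34.1% of the macrophage-like cells. It had 36, 36, 15 and 3 cells in the TOE libraries, or 27.7%, 5.86%, 3.12% and 11.5%. Its share of the C1q UMIs of the class was lowest in TO 4d 4h, at 16.6%, and highest in TOE 2d 4h, at 68.1%.

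Inside sub-cluster 3 the C1q sum varied less between libraries than in the class as a whole without it being constant. It was 10924, 6371, 7771 and 12314 CPM in the TO libraries and 8804, 14455, 11119 and 13698 CPM in the TOE libraries. TO 2d 4h was the lowest and TOE 2d 24h the highest. With sub-cluster 3 left out, the remaining macrophage-like cells had 638, 584, 1194 and 1551 CPM in the TO libraries and 1029, 1047, 802 and 1593 CPM in the TOE libraries.

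Cd163 and Cd5l differed more than C1q between libraries inside sub-cluster 3. Cd163 was lowest in TO 2d 0h, at 289 CPM, and reached 1418 in TOE 4d 24h, where the sub-cluster had 3 cells and 50 Cd163 UMIs, with TO 4d 4h next at 1009.6. Cd5l was 159, 569, 226 and 148 CPM in the TO libraries and 115, 621, 629 and 596 CPM in the TOE libraries, the last from 21 UMIs. TO 2d 4h and the TOE libraries other than TOE 2d 4h were high in Cd5l, each with several times the CPM of the lowest.

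**Figure D4:**
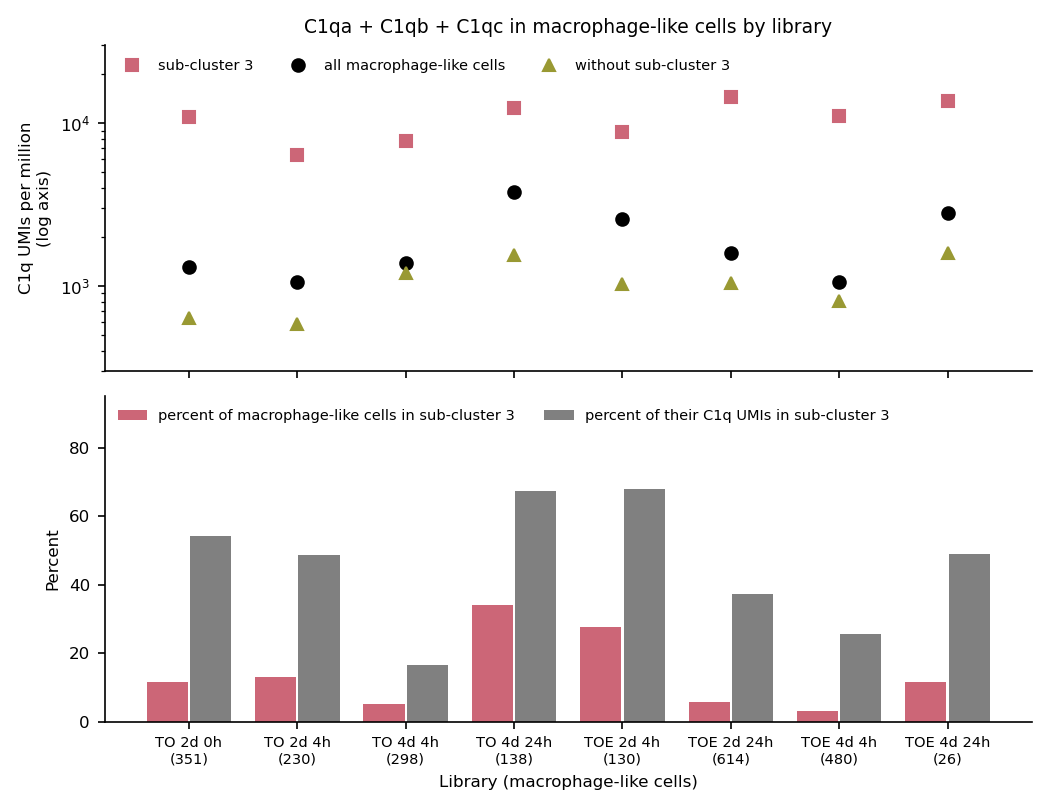
Upper panel, C1q sum in CPM (log axis) in each library in sub-cluster 3, in all macrophage-like cells and in those outside sub-cluster 3. Lower panel, bars for the percent of macrophage-like cells and of their C1q UMIs that lay in sub-cluster 3, with the tallest bar for cells in TO 4d 24h (34.1%) and the shortest in TOE 4d 4h (3.12%).

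Outside the macrophage-like cells and droplets, Mrc1 and Cd5l had further holders. Endothelial-like cells, 372 in all, had 60.4 CPM of Mrc1, with UMIs in 31.5% of the cells, and 29.5 CPM of Cd5l, with UMIs in 16.9%. Mrc1 in them was lowest in TOE 4d 24h, at 23.9 CPM, and highest in TO 4d 24h, at 178, and Cd5l was 7.96 and 135 CPM in the same libraries, also its lowest and highest. These values rested on few cells, 16 endothelial-like cells for the lowest and 37 for the highest, and the difference was not tested. The 63 endothelial-like cells with Cd5l had 214 CPM of Stab2, a scavenger receptor of sinusoidal endothelium, and 447 of Pecam1, a pan-endothelial gene, against 4.36 and 817 CPM in the 240 cells without Cd5l or Mrc1. Cd5l and Mrc1 were found together in 48 of these cells, and the 63 cells held 14 C1q UMIs in all. Cd163 had 2 UMIs in the endothelial-like cells.

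Mrc1 was also found in granulocyte-monocyte progenitor-like cells, at 10.9 CPM. It was higher in the cluster led by Prtn3, Ctsg and Elane, genes of azurophil granules, where 371 of 1489 cells had a UMI and the level was 14.4 CPM, than in the other progenitor cluster at 7.14 CPM. Dendritic cell-like cells had 6.34 CPM and monocyte-like cells 3.95, against 1.27 in B cell-like cells. Cd163 in dendritic cell-like cells was 1.85 CPM, with a UMI in 34 of 2043 cells, against 0.324 CPM and 0.130% of B cell-like cells. Median depths were 14308.5 UMIs in endothelial-like, 17291 in progenitor-like and 16449 in dendritic cell-like cells, against 3908 in B cell-like cells, where Mrc1 had a UMI in 0.489% and Cd5l in 0.0730%.

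Vsig4 was too sparse to follow across conditions. Its UMIs in macrophage-like cells were 3, 2, 16 and 9 in the TO libraries and 1, 77, 3 and 0 in the TOE libraries, and of the 77 in TOE 2d 24h, 62 lay in 2 cells. An unnamed cluster of 377 cells led by Il23a held 14 Vsig4 UMIs in 11 cells, or 14.4 CPM.

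The C1q droplets were set beside sub-cluster 3, the sub-cluster with the highest level of each member found, and differed from it elsewhere. On the log2 scale of CPM the droplets were higher than sub-cluster 3 by 0.92 for C1qa, 0.87 for C1qb, 0.90 for C1qc, 0.59 for Cd5l and 0.19 for Cd163, and the difference for Mrc1 was -0.13. Over the 3158 genes measured the median difference was -0.35, and 223 genes were higher and 1030 lower in the droplets by more than 2-fold. Across genes other than the members, which are not independent replicates, Pearson's r of log2 CPM with the droplets was 0.688 for sub-cluster 3. It was 0.881 for the whole class and 0.878 for monocyte-like cells. Sub-clusters 1, 2, 5, 6, 7 and 9 stood at 0.781, 0.765, 0.770, 0.727, 0.812 and 0.777. Sub-clusters 4, 8, 10 and 11 stood at 0.441, 0.63, 0.655 and 0.549. Each r was taken over the genes with enough UMIs in that set, from 4773 to 15738 genes. The droplets were higher than sub-cluster 3 in B cell genes, with 2061 CPM of Ebf1 against 210.3 and 161 CPM of Pax5 against 19.6. Their median mitochondrial share was 5.19% against 4.31%, their median number of genes 678 against 3141, and C1q made up a median of 2.35% of their UMIs against 0.768%. All 12 macrophage, 9 B cell and 10 erythroid markers had UMIs in the droplets, whereas Atp6v0d2 and Calcr of 8 osteoclast markers, Ltf of 11 neutrophil markers, Pdgfra, Lepr and Sp7 of 12 mesenchymal markers and Cdh5 and Flt1 of 10 endothelial markers were at 0.

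Between libraries the droplets varied less in C1q than the macrophage-like cells did. Their C1q sum was 16514, 21378, 22114 and 23439 CPM in the TO libraries and 20431, 25135, 16472 and 28832 CPM in the TOE libraries, from 10 to 85 droplets a library. Cd163 in them was 443, 1109, 1077 and 682 CPM in the TO libraries and 996, 688, 498 and 408 in the TOE libraries. TO 2d 0h had the least Cd5l, 162 CPM, and TO 2d 4h the most, 973. Markers of other cells moved with the library in the droplets too, B cell markers between 997 and 4254 CPM and neutrophil markers between 1985 CPM and 18120 CPM in TO 4d 4h, and their part in the result was not tested.

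The C1q level of the macrophage-like cells differed several fold between libraries, in the TO arm as much as between arms. C1qa was 577, 445, 646 and 1745 CPM in the TO libraries and 1031, 705, 435 and 1267 CPM in the TOE libraries. The C1q sum was 1305, 1049, 1389.6 and 3765 CPM in the TO libraries and 2579, 1602, 1050.4 and 2814 CPM in the TOE libraries, from 984 to 18627 UMIs a library. TO 4d 24h, TOE 4d 24h and TOE 2d 4h were the highest, and TO 2d 4h and TOE 4d 4h the lowest.

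In the day 2 pair the C1q sum was 2.46 times as high in the TOE library as in the TO library (2.35 to 2.57), with ratios of 2.32 for C1qa, 2.57 for C1qb and 2.56 for C1qc. In the early and late day 4 pairs the ratio lay below 1, at 0.756 (0.732 to 0.781) and 0.747 (0.699 to 0.799). All 3 chains had the same direction in each pair. The libraries of the day 2 pair and of the late day 4 pair also stood apart in other lineages, and the early day 4 pair differed in sub-cluster 8, and the part of this in the ratios was not tested. Without sub-clusters 2, 7 and 8 the early day 4 ratio was 0.866 (0.835 to 0.897), with C1qb at 0.994 (0.932 to 1.06). Sub-cluster 3 made up 27.7% of the macrophage-like cells of the TOE library against 13.04% of the TO library in the day 2 pair, 3.12% against 5.03% in the early day 4 pair, and 11.5% against 34.1% in the late day 4 pair, so that its share moved in the direction of the C1q ratio in the 3 pairs. Inside sub-cluster 3 the C1q ratio was 1.38 in the day 2 pair, 1.43 in the early day 4 pair and 1.11 in the late day 4 pair, where the TOE library had 3 cells, and in the macrophage-like cells without it 1.76, 0.672 and 1.03. Without sub-clusters 2, 3, 7 and 8 the late day 4 ratio was 1.33 (1.20 to 1.47), with C1qc at 1.71 (1.38 to 2.11), from 63 TO and 23 TOE cells. The day 2 ratio was thus above 1 in the class, inside sub-cluster 3 and in the pooled cells outside it. In the early day 4 pair the ratio was above 1 inside and below 1 in the pooled cells outside. In the late day 4 pair, where the class lay below 1, it was not below 1 in either. Single sub-clusters outside it differed. In the day 2 pair, of the members with at least 20 UMIs, 4 of 4 were higher in the TOE library in sub-cluster 9. The counts were 3 of 4 in sub-cluster 5, 3 of 5 in sub-cluster 6, 3 of 6 in sub-cluster 7 and 1 of 3 in sub-cluster 2. The 1 such member in sub-cluster 10 and the 1 in sub-cluster 11 were lower. Of the members with at least 20 UMIs in the early day 4 pair, 4 of 4 were higher in the TOE library in sub-cluster 5, 3 of 4 in sub-cluster 11, 3 of 5 in sub-cluster 6 and 1 of 6 in sub-cluster 7. None of 4 was in sub-clusters 2, 8 and 9, nor the 1 in sub-cluster 10. In the late day 4 pair none of 4 was in sub-cluster 1 (16 TO and 7 TOE cells) or 6 (9 and 3 cells). Up to 3 of the members in each count are chains of 1 protein, and the share of all genes that were higher was not counted. The median log2 ratio over all genes lay between -0.06 (sub-cluster 5) and 0.14 (sub-cluster 8) in these sub-clusters of the early day 4 pair. It was -0.08 and -0.12 in the 2 of the late day 4 pair. In the C1q droplets the C1q ratios were 0.956 (0.905 to 1.01), 0.745 (0.707 to 0.785) and 1.23 (1.13 to 1.34).

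Cd163, the haemoglobin receptor, was 25.01, 101, 50.9 and 142 CPM in the TO libraries and 150.3, 31.1, 23.8 and 169 CPM in the TOE libraries, from 59 to 362 UMIs a library. TO 2d 0h, TOE 2d 24h and TOE 4d 4h were the lowest, well under the others except TO 4d 4h. The TOE to TO ratio was 1.49 (1.26 to 1.76) in the day 2 pair, 0.467 (0.382 to 0.570) in the early day 4 pair and 1.18 (0.878 to 1.57) in the late day 4 pair. Without sub-cluster 3 it was 0.674 (0.422 to 1.04), 0.316 and 0.905, and in the C1q droplets 0.899 (0.698 to 1.15), 0.462 and 0.598. Inside sub-cluster 3 the ratio was 0.738 (0.613 to 0.887), 0.705 and 2.49. Without sub-clusters 2, 7 and 8, which carried genes of other lineages, the day 2 ratio was 1.79 (1.49 to 2.14). The day 2 ratio was therefore above 1 in the whole class and below 1 inside sub-cluster 3, with intervals that spanned 1 outside it and in the droplets, whereas the early day 4 ratio was below 1 in each of these.

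Mrc1, the mannose receptor, was 136, 327, 338 and 236 CPM in the TO libraries and 267, 139.8, 243 and 169 CPM in the TOE libraries. In the whole class it was the member lower in the TOE library in all 3 pairs, with ratios of 0.817 (0.730 to 0.912) in the day 2 pair, 0.719 (0.672 to 0.769) in the early day 4 pair and 0.714 (0.535 to 0.939) in the late day 4 pair. Without sub-cluster 3 the ratios were 0.441 (0.371 to 0.521), 0.751 and 0.922 (0.637 to 1.30), and without sub-clusters 2, 7 and 8 the day 2 ratio was 0.934 (0.831 to 1.05). Without sub-clusters 2, 3, 7 and 8 the late day 4 ratio was 1.04 (0.714 to 1.48). Inside sub-cluster 3 the ratios were 0.983, 0.487 and 0.902, and inside sub-cluster 6 they were 0.406, 0.768 and 0.374 (0.170 to 0.738), the last from 9 TO and 3 TOE cells. In sub-cluster 5 all 4 members with at least 20 UMIs, Mrc1 among them, were higher in the TOE library in the early day 4 pair. In sub-cluster 9 all 4 such members were higher in the day 2 pair and none of 4 in the early day 4 pair. The median log2 ratio over all genes was -0.06 in sub-cluster 5, and 0.01 and -0.05 in sub-cluster 9. TO 2d 0h, before any session, lay with the lowest libraries, so the spread between the TO libraries was as large as that between the arms. In the droplets the ratios were 1.08 (0.816 to 1.44), 0.579 and 0.354 (0.0942 to 0.944), the last from 4 UMIs in 10 TOE droplets.

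Cd5l was 15.3, 51.5, 10.8 and 34.6 CPM in the TO libraries and 25.96, 33.9, 18.8 and 60.1 CPM in the TOE libraries, from 21 to 394 UMIs a library. In the whole class it went the other way from C1q in each pair, with ratios of 0.504 (0.352 to 0.707) in the day 2 pair, 1.74 (1.26 to 2.42) in the early day 4 pair and 1.74 (1.01 to 2.88) in the late day 4 pair, where all 21 UMIs of the TOE library lay in the 3 cells of sub-cluster 3. In the droplets the ratios, given without intervals, were 0.575, 1.29 and 1.35. The droplets held 34.3% of the 134 Cd5l UMIs of TO 4d 4h and 22.2% of the 36 of TOE 4d 24h. The day 4 droplet ratios thus rested on few UMIs in 1 library of each pair, and no direction is read from them. In sub-cluster 3 the ratios were 0.202, 2.79 and 4.03, so that Cd5l and C1q both lay above 1 there in the day 4 pairs. Outside sub-cluster 3 both lay below 1 in the early day 4 pair, Cd5l at 0.883 (0.478 to 1.65). TO 2d 4h was the library with the most Cd5l per UMI in the TO arm, and in the droplets it was the highest of all 8.

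**Figure D5:**
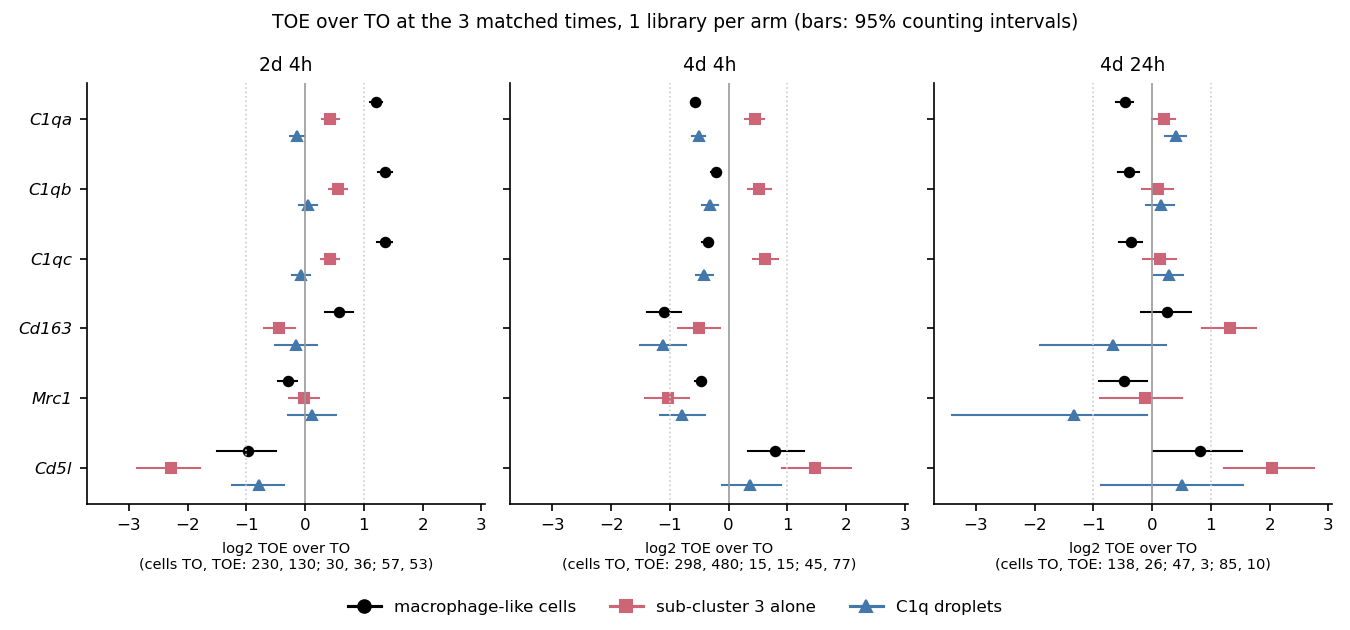
The log2 ratio of the TOE to the TO library (horizontal axis) for 6 members in the 3 matched pairs, with black circles for macrophage-like cells, red squares for sub-cluster 3 and blue triangles for C1q droplets, bars for 95% counting intervals and dotted lines at 2-fold. In macrophage-like cells Mrc1 lay below 0 in the 3 pairs, and the C1q genes lay above 1 in the day 2 pair and below 0 in the later pairs. In sub-cluster 3 the C1q genes lay between 0 and 1 in the 3 pairs.

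Of the 6 members with at least 20 UMIs over a pair, 3 differed by more than 2-fold in the day 2 pair, where 7.2% of 10834 genes did (4.33% higher and 2.87% lower in the TOE library), and these were the C1qb, C1qc and C1qa chains of 1 protein. The count fell to 1 without sub-cluster 3, in sub-cluster 3 alone and with the members kept for clustering, and in the first 2 of these no C1q chain passed. In the early day 4 pair 1 did, Cd163, where 5.37% of 12566 genes did (3.51% lower). In the late day 4 pair 0 of the 6 did, where 20.4% of 8915 genes did. The median log2 ratio of the members was 0.89, -0.41 and -0.38, against 0.07, -0.04 and 0.02 over all genes measured.

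Other marker lists moved between the macrophage-like libraries as well, and their part in these ratios was not tested. The summed monocyte markers were 9873, 8315, 13223 and 5921 CPM in the TO libraries and 9392, 10031, 15316 and 12832 CPM in the TOE libraries. Osteoclast markers ran from 604 to 2702 CPM, neutrophil markers from 1563 to 4213, B cell markers from 532 to 1143 and erythroid markers from 149 to 2544, while macrophage markers ran from 6244 to 11332. In the sum over a class, fewer C1q-bearing cells and less C1q per cell cannot be told apart, and the values by sub-cluster are given for that reason.

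Beyond the members, 7 of 14 complement components and regulators were at least 2-fold higher in macrophage-like than in monocyte-like cells, as were 20.2% of 22471 genes, and 4 were highest in the C1q droplets among the myeloid sets, as were 16% of the genes. All 7 members with UMIs met both, and some genes of these lists, Axl, Mertk, Hmox1 and Slc40a1 among them, were also markers by which the class was named. Cfd, the protease factor D of the alternative pathway, was 248 CPM in macrophage-like cells, 4866 in the droplets and 40.0 in monocyte-like cells. Cfp, which encodes properdin, was 72.7, 1195 and 115 CPM, and so went with the droplets and sub-cluster 3 (533 CPM) rather than with the class. C3, the central component that C1q activity leads to, was 7.55 CPM in macrophage-like cells and highest in neutrophil-like cells, at 206 CPM.

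Beside the same shares of all genes, 20.2% and 16%, 2 of 10 complement receptors were at least 2-fold higher in macrophage-like than in monocyte-like cells, a share no larger than that of all genes, among them C3ar1 at 37.8 against 13.2 CPM. Of 16 measured scavenger and efferocytosis receptors 12 were, with Folr2 at 147 CPM against 3.90 and Axl at 76.1 against 0.361, and 7 were highest in the droplets. Of 11 genes of haem and iron recycling 8 were, and 10 were highest in the droplets, with Hmox1 at 2842 CPM and Slc40a1 at 727 CPM against 928 and 51.7 in macrophage-like cells. Of 9 genes commonly used as polarisation markers 5 were, and 1 was highest in the droplets, where Arg1 was 1.86 CPM and Tnf 0.930 against 118 and 89.1 CPM in macrophage-like cells.

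Between the arms few of these genes passed 2-fold on day 2 and in the early pair of day 4. In the day 2 pair 1 of 7 complement components with enough UMIs was higher in the TOE library, Cfd with a log2 ratio of 1.20, and none was lower, with a median of 0.60, where 4.33% of all genes were higher and 2.87% lower. Of 10 haem and iron genes, Hmox1 (1.21) and Nr1h3 (1.32) were higher, and of 14 scavenger receptors none passed in either direction, with a median of -0.05, nor did any of 9 complement receptors. Of 8 polarisation markers, Il1b (1.09) and Tgm2 (1.33) were higher. In the early day 4 pair the components held 1 of 11 lower, Serping1 at -2.20, the scavenger receptors 3 of 15 lower, Colec12, Axl and Lyve1 at -1.19, -1.02 and -1.14, and the haem and iron genes 2 of 10 lower, Slc40a1 at -1.22 and Spic at -1.04, where 3.51% of all genes were lower and 1.86% higher. None of 9 receptors passed, and Tgm2 (1.67) was the 1 of 8 polarisation markers that did.

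In the late day 4 pair, with 26 macrophage-like cells in the TOE library, 3 of 6 components were higher, among them C2 at 1.08 and C3 at 3.06, and none was lower. Of 9 receptors, C5ar1 (1.59) and Lrp1 (1.06) were higher, and of 10 haem and iron genes Ftl1 (1.38) and Slc11a1 (1.74) were. The scavenger receptors had 1 of 14 higher and 2 lower. The polarisation markers had 3 of 7 higher, Arg1 at 5.76, Tgm2 at 1.95 and Nos2 at 1.80. Another 3 were lower, Il1b at -2.93, Il10 at -2.79 and Cd86 at -1.12. The cells of this pair lay in different sub-clusters, and sub-cluster 5, which had 282 CPM of Arg1, held 2 of the 138 TO cells and 10 of the 26 TOE cells. Of all genes 10.6% were higher and 9.74% lower in this pair.

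The genes whose level over the 31 clusters was most like that of the members, given as Pearson's r with no test because the clusters share libraries, were Ms4a7 (0.954), Fcrl2 (0.936) and Siglec1 (0.931) for the C1q sum. They were Nat8f3 (0.971), RT1-M2 (0.960) and LOC120102852 (0.958) for Cd163, Akr1b10 (0.899), Scamp5 (0.889) and Tmem176a (0.888) for Mrc1, and Slco2b1 (0.975), Dnase1l3 (0.975) and Akr1b10 (0.957) for Cd5l. The values for Mrc1 were the lowest of these.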

How the data were processed

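Tissue from the tibial osteotomy site was measured by 10x Chromium single-cell RNA sequencing in 8 libraries, 1 per condition. Per the labels, the authors made the deposited matrices of UMI counts with Cell Ranger 9.0.0. The submitters' processing notes also name Seurat, R 4.0.3, mRatBN7.2 and GRCh38, with no role stated for the last. The counts are raw, and no column of another sample was used.

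Barcodes with at least 500 UMIs, 200 genes and at most 20% mitochondrial counts were kept (114232 of 116711), and 3744 with a Scrublet doublet score above 0.25 (3.28%) were removed. With scanpy 1.11.5, igraph 0.11.9, scikit-learn 1.9.0, numpy 2.4.6, scipy 1.17.1 and pandas 2.3.3 under Python 3.11.15, cells were clustered on 2000 variable genes, 30 principal components and 15 neighbours at Leiden resolution 1. Members were left out of the variable genes and the marker lists. A marker was raised where it was at least 2-fold above all other cells and found in at least 10% of the cluster's cells. A cluster was named where at least 3 markers of a class were raised and the mean log2 fold over the class's markers was at least 1. Markers not raised entered that mean as no change. Clusters whose median UMI count was under that of their libraries divided by 3 were treated as shallow. In all, 16764 cells (15.2%) stayed unnamed. Macrophage-like cells were clustered again on 20 components at resolution 0.5.

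Levels are summed UMIs per 1000000 UMIs (CPM) with exact Poisson intervals, shares have exact Clopper-Pearson intervals and ratios exact conditional ones, all at 95%. Pairs needed 20 UMIs over both libraries and log2 ratios a prior of 0.5 UMI. A count of 0 was read as at most 3. The ratio calculation was tested on simulated data. Cells are not replicates, so no condition was tested. The genes named were the members, the fixed lists, and for each set of cells its leading genes by fold. The values of 1 gene of the complement list are not reported here. The members and lists were chosen with earlier results of these data known. Alternatives covered the barcode filters, doublets, clustering resolution, seed and variable genes, the UMI minimum and the weighting of cells. Figures were drawn with matplotlib 3.10.9.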

Additional observations from a re-analysis of the deposited data

Results flagged for a closer look

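Members whose TOE to TO ratio in macrophage-like cells lay on opposite sides of 1 in different pairs, with both counting intervals apart from 1, are given here. The C1q chains were taken as their sum. Each value is a difference of log2 ratios between pairs, every arm is 1 library, and none of these differences was tested. For the C1q sum the log2 ratio was 1.30 in the day 2 pair against -0.40 in the early day 4 pair, a difference of 1.70, and against -0.42 in the late day 4 pair, a difference of 1.72. For Cd163 it was 0.58 in the day 2 pair against -1.10 in the early day 4 pair, a difference of 1.67. In the day 2 pair its log2 ratio was -0.44 inside sub-cluster 3, -0.55 outside it and -0.15 in the C1q droplets, the last 2 with intervals that spanned 0, and 0.84 without sub-clusters 2, 7 and 8. Inside sub-cluster 3 the C1q ratio lay above 1 in the 3 pairs. In the whole class Cd5l went the opposite way, with -0.98 in the day 2 pair against 0.79 in the early day 4 pair and 0.82 in the late day 4 pair, differences of -1.76 and -1.80. All 21 Cd5l UMIs of the TOE library of the late day 4 pair lay in 3 cells of sub-cluster 3.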

How the results depend on the processing

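No paired analysis of replicates was possible because each condition was 1 library, with no replicate numbers to pair and no replicate to leave out. A test of TO against TOE over the 3 matched pairs, which would take different days and hours as replicates, was not run. Among the C1q ratios, shares and levels, the C1qa share and the counts of members, 49 alternative values stayed within the counting interval of the value reported (counts within 1.5 times), 51 moved beyond it and 3 turned direction, and among shares for single members 24 stayed and 42 moved. The settings that leave out or isolate sub-clusters were chosen after the data were seen.

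The C1q ratio in the day 2 pair (2.46) stayed above 1 in every setting run, at 2.61 with doublets kept, 2.27 at resolution 0.5, 2.01 at resolution 2, 1.96 with the members kept for clustering, 2.62 with another seed, 2.25 as a mean over cells, 2.15 with the droplets counted in, 1.76 without sub-cluster 3, 1.38 in sub-cluster 3 alone and 2.61 without sub-clusters 2, 7 and 8. The members past 2-fold numbered 1 in place of 3 with the members kept. They also numbered 1 without sub-cluster 3, where it was Mrc1, lower at 0.441, and in sub-cluster 3 alone, where it was Cd5l, lower at 0.202, and no C1q chain passed in either. In the early day 4 pair (0.756) the ratio was 0.891 with the stricter filter, 0.863 at resolution 0.5, 0.693 with the members kept, 0.636 as a mean over cells, 0.860 with the droplets counted in, 0.672 without sub-cluster 3 and 0.866 without sub-clusters 2, 7 and 8, and it turned to 1.43 in sub-cluster 3 alone. The members past 2-fold were 2 with the stricter filter, with a minimum of 1 UMI and in sub-cluster 3 alone.

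In the late day 4 pair (0.747), the pair with 26 TOE cells, the ratio was 0.834 with the stricter filter, 0.682 with all barcodes, 0.680 with doublets kept, 0.531 at resolution 2 and as a mean over cells, 0.551 with the members kept and 0.835 with the droplets counted in, and it turned to 1.03 without sub-cluster 3 and 1.11 in it alone. The members past 2-fold were 1 with a minimum of 1 UMI and 2 in sub-cluster 3 alone.

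The macrophage-like share of the C1q UMIs (65.0%) was 89.2% with the stricter filter and 89.7% at resolution 0.5 or with the droplets counted in (in the first 2 no C1q droplets stood apart), and 64.3%, 63.8%, 61.6%, 61.9% and 64.2% with all barcodes, doublets kept, resolution 2, the members kept and another seed. The C1q level of the class (1533 CPM) was 2077 with the stricter filter, 2175 at resolution 0.5, 2057 with the droplets counted in, 1565 with all barcodes, 1596 with doublets kept, 1939.7 at resolution 2 and 1919.5 with the members kept (where 409 and 401 cells formed an osteoclast-like class, which held 0 cells otherwise), 1611 with another seed, 1924 as a mean over cells and 1516 without sub-clusters 2, 7 and 8. C1qa at a thinning to 2000 UMIs was found in 30.0% of macrophage-like cells, against 25.1% at 1000. The causes of these changes were not tested.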
